A study of Mus musculus with 2 samples.

Results

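The genes described here are the Wnt ligands, the proteins that secrete and receive them and the core of the intracellular pathway, measured in single cells of the fetal femur. The 52 genes are 16 Wnt and 10 Fzd genes, which are all genes of the 2 count tables whose symbol is Wnt or Fzd with a number, plus 26 listed pathway genes, out of 22652 genes found in either table. None was chosen by a measured value. In the wild-type library 51 of the 52 had at least 1 UMI (a unique molecular identifier, which marks 1 captured RNA molecule), and 50 had one in the mutant library. With at least 20 UMIs over both libraries, 43 genes are described below. The other 9 are given by their UMIs alone.

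The study prepared BD Rhapsody whole transcriptome libraries from femurs of embryos at E18.5. It gives C57BL/6 as the strain for wild-type marrow and a predominantly C57BL/6 background for mutants. Whole femurs were crushed, digested with collagenase and depleted of lineage-committed haematopoietic cells. Both libraries therefore hold haematopoietic stem and progenitor cells (HSPCs) and other cells of the femur, cartilage cells among them. One library is labelled WT and the other Bmx-CreER Wls, a tamoxifen-inducible deletion of Wls in arterial endothelial cells (AECs), where Bmx drives the recombinase. Each genotype is 1 library, so there is no replicate error, no test between genotypes was possible, and genotype, litter, tamoxifen and library cannot be told apart. Which exons the floxed Wls allele loses is not given in the sources used here, so a count of Wls transcripts need not report the deletion.

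Wnt proteins are lipid-modified by the acyltransferase Porcn and carried to the cell surface by Wls, so a cell that lacks Wls cannot release them normally. At the receiving cell they bind Fzd receptors with the co-receptors Lrp5 or Lrp6 to stabilise β-catenin (Ctnnb1), which acts with Tcf and Lef factors in the nucleus, or they act through Ror and Ryk receptors without β-catenin. In developing bone, Wnt5a and Wnt5b are known for their part in growth plate cartilage, and canonical ligands for their part in osteoblast formation.

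The WT table held 5998 cell barcodes and 22708005 UMIs, and the mutant table held 6825 barcodes and 24704991 UMIs. After filtering, 5736 and 6620 cells remained, with medians of 3128 and 3067 UMIs per cell. The tables shared 49 barcode sequences, 48 of them in kept cells, and these were treated as different cells. The cells fell into 25 clusters, named here from marker lists and leading genes and not by the authors. They were grouped into cartilage (2149 WT and 3209 mutant cells), stromal (1486 and 1019), mural (115 and 112), endothelial (588 and 465) and blood cells (713 and 461). A further 4 clusters carried no compartment and held 11.9% of WT and 20.5% of mutant cells. Of these, the Wif1-high and Bpifb1-high clusters carry cartilage genes but were kept out because their leading genes include markers of another class.

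Levels below are a gene's UMIs in a cell group for every 1000000 UMIs counted in that group. Values in square brackets are 95% exact intervals, Poisson for a level and conditional binomial for a ratio, and they cover counting error only. Where a group has no UMI of a gene, 3 UMIs are taken as the limit of detection. UMI counts were not divided by gene length, so a level of 1 gene is compared between cell groups and not with the level of another gene.

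The targeted gene Wls (chr3:159839672-159938664, GRCm38) had 9 UMIs in 69 WT arterial-like cells and 2 UMIs in 63 mutant ones. These are levels of 40.1 [18.3–76.1] and 7.66 [0.928–27.7], and the mutant level was 0.191 [0.020–0.924] of the WT level, an interval that excludes 1. These counts fall short of the 50 UMIs that the comparison of libraries below asks for. In all kept cells Wls was also lower in the mutant library, at 135 [130–140] in WT and 112 [108–117] in the mutant. The arterial-like cells had the arterial markers in both libraries: Gja5, a gap junction gene, had 361 and 386 UMIs, and Bmx itself had 29 and 65. In sinusoidal-like cells Wls had 32 and 14 UMIs and a ratio of 0.569 [0.281–1.10], and in the other endothelial cells 41 and 26 UMIs and a ratio of 0.675 [0.396–1.13]. Wls was thus lower in the mutant library in all 3 sets, with intervals that overlap each other, and whether the arterial-like ratio differs from the others was not tested. In endothelial cells as a whole, 82 and 42 Wls UMIs gave levels of 41.2 [32.8–51.1] and 23 [16.6–31.1].

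**Figure D1:**
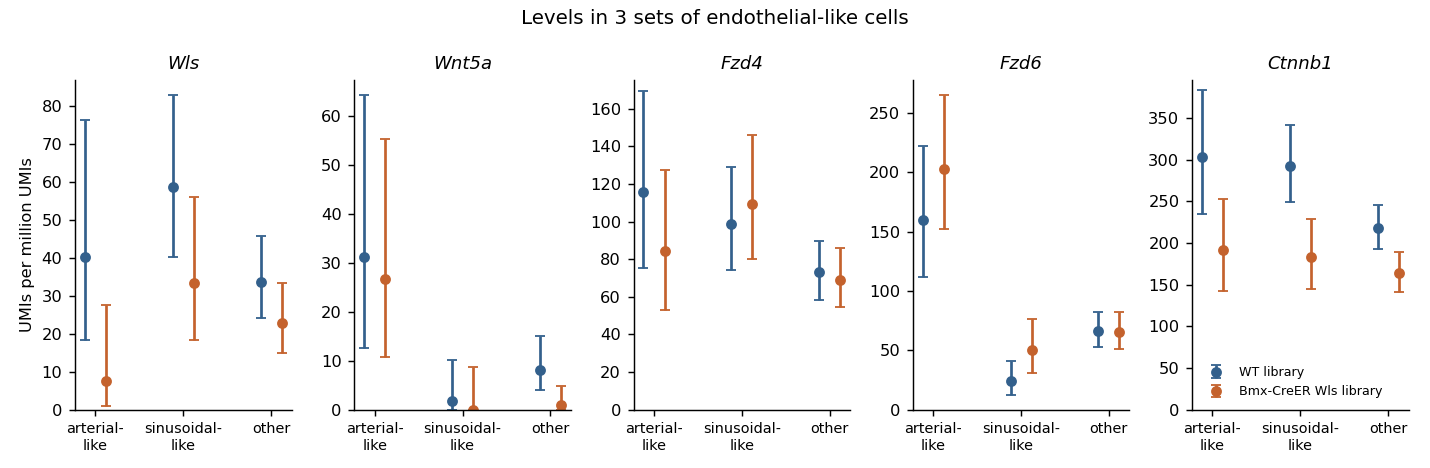
Levels of Wls, Wnt5a, Fzd4, Fzd6 and Ctnnb1 (UMIs per 1000000 UMIs, linear axis) in arterial-like, sinusoidal-like and other endothelial cells of the WT (blue) and Bmx-CreER Wls (orange) libraries. Points are levels of 1 library and bars are 95% exact Poisson intervals. Wls in arterial-like cells stands at 40.1 in WT and 7.66 in the mutant library, Wnt5a is highest in arterial-like cells of both, and Fzd6 is highest in the arterial-like cells of both.

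Cartilage and stromal cells were the main senders. Summed over the 16 Wnt genes, cartilage stood at 252 [241–264] in WT and 195 [187–204] in the mutant library, and stromal cells at 247 [234–260] and 211 [197–226]. Mural cells followed with 75.1 [49.9–109] and 81.7 [56.6–114]. Endothelial cells had 18.1 [12.7–25.0] and 8.76 [5.01–14.2], and blood cells 5.84 [3.94–8.34] and 5.47 [3.24–8.65]. In WT the intervals separate every neighbour in this order except cartilage and stromal cells, and in the mutant library they do not separate cartilage from stromal or endothelial from blood cells. In each alternative clustering given below, cartilage fell below its interval here in both libraries. Its place beside stromal cells therefore depends on the clustering. In WT, 54.1% of the 3568 Wnt UMIs came from cartilage, 37.4% from stromal cells and 5.89% from the clusters with no compartment. In the mutant library 55.8% of 3909 Wnt UMIs came from cartilage, 20.8% from stromal cells and 21.6% from the clusters with no compartment.

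Receptors were spread more evenly than ligands. Summed over the 10 Fzd genes, stromal cells had levels of 381 [365–398] and 424 [404–445], cartilage 302 [290–314] and 393 [382–405], mural cells 276 [225–335] and 298 [248–355], and endothelial cells 202 [183–223] and 215 [194–237] in the WT and mutant libraries. Blood cells had the lowest sums, 38.5 [33.4–44.3] and 38.3 [31.9–45.6]. Wls, which every sender needs, was highest in stromal cells at 292 [278–307] and 220 [205–235], then in mural cells at 147 [111–192] and 142 [108–183] and in cartilage at 101 [93.7–108] and 95.9 [90.2–102]. Blood cells had 183 and 109 Wls UMIs, at 35.6 and 33.1, beside 30 and 18 Wnt UMIs. Matrix genes of cartilage and stroma, which endothelial and blood cells should lack, stood at no more than 6.07% and 6.19% of their library-wide level in endothelial cells and at no more than 3.604% and 2.43% in blood cells. At those rates free RNA could give up to 29.7 and 12.8 Wnt UMIs in blood cells and up to 19.4 and 18.1 in endothelial cells, so the interval was above that rate for endothelial cells of WT (36 UMIs), and the Wnt sums of blood cells and of mutant endothelial cells were not told apart from it. Wls in blood cells was above it, where it allows at most 25 and 9 UMIs. A sum need not hold for each ligand, and Wnt6, with 4 and 8 of the blood Wnt UMIs, is given below. Part of the WT endothelial Wnt sum came from an endothelial subcluster of 30 WT cells led by Matn1, Col2a1 and Col9a1. Without that subcluster the WT endothelial level fell below its interval. Whether the remaining UMIs exceed the free RNA rate was not tested.

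**Figure D2:**
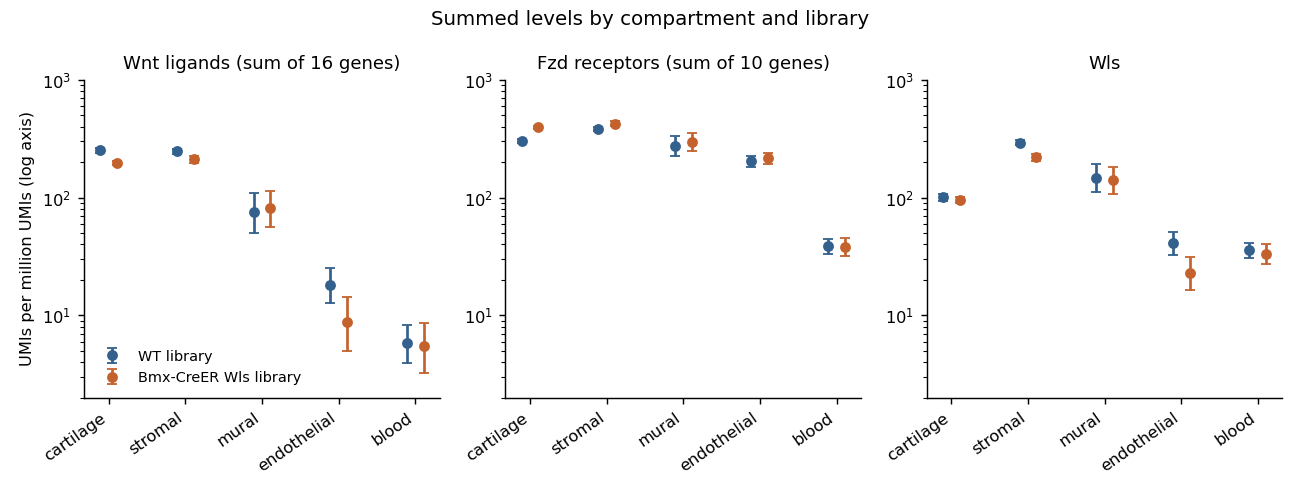
Summed levels of the 16 Wnt and the 10 Fzd genes and the level of Wls (UMIs per 1000000 UMIs, log axis) in 5 compartments of the WT (blue) and Bmx-CreER Wls (orange) libraries. Points are levels of 1 library with 95% exact Poisson intervals. Wnt sums fall from 252 in WT cartilage to 5.84 in WT blood cells, while Fzd sums of all compartments but blood lie between 202 and 424.

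Within cartilage the strongest senders had some of the lowest receptor sums. Col10a1-high hypertrophic chondrocyte-like cells had summed Wnt levels of 516 and 521 in the WT and mutant libraries, rank 3 and rank 2 of 25 clusters. Their summed Fzd levels were 131 and 211, rank 21 and rank 20. Smpd3-high columnar chondrocyte-like cells ranked 4 and 3 for Wnt, at 404 and 484, and 18 for Fzd in both libraries, at 225 and 233. The highest Wnt sum of all was that of the Bpifb1-high cluster, 599 and 869, which rests on 42 WT and 188 mutant cells. Chodl-high tendon-like cells were high for both, with Wnt sums of 567 and 296 and Fzd sums of 608 and 604. The lowest Wnt sums were those of erythroid-like cells in WT, with 1 UMI, and of Stab1-high endothelial-like cells in the mutant library, with 0 UMIs.

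Wnt5a, the best known non-canonical ligand, gave 41.4% of WT and 38.8% of mutant Wnt UMIs. Its levels were 105 [97.5–112] and 78.4 [73.3–83.7] in cartilage, 105 [97.0–114] and 77.1 [68.6–86.3] in stromal cells, 59.0 and 40.8 in mural cells, 9.04 and 4.38 in endothelial cells and 2.53 and 0.304 in blood cells. In WT its highest level was in Chodl-high tendon-like cells, at 373 [296–464], and in the mutant library in Bpifb1-high cells, at 388 [346–435]. Hypertrophic chondrocyte-like cells had 226 and 249, and the Mfap5/Clec3b-high stromal cluster, which carries the markers of embryonic bone marrow stromal cells (eBMSC-like), had 130 and 77.4. Of the 13 Wnt5a UMIs in WT blood cells, 11 lay in osteoclast-like cells, which had none in the mutant library. The matrix genes, at the rates given above, allow up to 12.3 and 4.98 Wnt5a UMIs in blood cells and up to 8.01 and 7.02 in endothelial cells, so only the 18 UMIs of WT endothelial cells had an interval above that rate, and the 8 of the mutant library and the 13 and 1 of blood cells did not.

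Wnt5b, the closest relative of Wnt5a, was mostly a cartilage transcript. Its cartilage levels were 67.9 [62.2–74.0] and 34.1 [30.8–37.7], against 15.4 and 19.7 in stromal cells, 5.36 and 21.6 in mural cells, 4.02 and 0.547 in endothelial cells and 1.36 and 0.912 in blood cells. The hypertrophic cluster was highest in both libraries, with 180 [161–201] in WT and 127 [113–143] in the mutant. Wnt11, a non-canonical ligand known from cell movements in the embryo, was highest in cartilage too, at 45.6 [40.9–50.6] and 49.3 [45.3–53.6]. It had 27.0 and 39.3 in stromal cells, 10.7 and 14.4 in mural cells, 2.01 and 2.19 in endothelial cells and 0.389 and 0.304 in blood cells. Wnt11 was highest in Bpifb1-high cells of the WT library, at 107 [59.9–176], and in columnar chondrocyte-like cells of the mutant library, at 110 [87.5–137].

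Wnt5b and Wnt11 were also the only members with a RefSeq promoter window that holds the 7-base Tcf/Lef core CTTTGAT on either strand. Windows ran from 250 bases before to 50 bases after a start site, and 35 members had 45 of the 32851 windows. The core is in 3.73% of all windows, and the 2 member windows are 4.44% of the 45. The shorter core CTTTGA is in 16% of all windows and in 5 member windows, 11.1%, those of Wnt5b, Wnt11, Lef1, Ror1 and Fzd1. The members' share was therefore near that of all promoters. The 250 bases before the start are shown for this pair as the member promoters with the longer core, and both ligands had their highest compartment level in cartilage. They are written in the direction of the gene, with the shorter core in capitals, from GRCm38.p6. The Wnt5b stretch is chr6:119449387-119449636 on the minus strand, within an intron of the gene and before an inner start site. The Wnt11 stretch is chr7:98834862-98835111 on the plus strand, just outside the gene. The core begins 71 bases before the Wnt5b start and 50 bases before the Wnt11 start, where it reads on the opposite strand as TCAAAG.
Wnt5b: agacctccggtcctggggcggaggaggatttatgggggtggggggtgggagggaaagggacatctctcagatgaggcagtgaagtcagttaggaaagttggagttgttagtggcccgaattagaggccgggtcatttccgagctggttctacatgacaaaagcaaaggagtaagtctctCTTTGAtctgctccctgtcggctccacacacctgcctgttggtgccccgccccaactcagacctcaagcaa
Wnt11: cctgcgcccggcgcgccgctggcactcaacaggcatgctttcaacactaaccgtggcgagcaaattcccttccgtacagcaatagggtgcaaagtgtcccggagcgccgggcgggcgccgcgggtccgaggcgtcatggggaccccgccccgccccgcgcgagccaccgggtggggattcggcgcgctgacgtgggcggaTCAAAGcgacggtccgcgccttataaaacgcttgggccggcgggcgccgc

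Wnt4, a ligand known from joint and kidney development, was as high in cartilage (26.9 and 22.6) as in stromal cells (24.6 and 28.2). It had at most 3 UMIs in mural and endothelial cells and 4 UMIs in WT blood cells. Its highest level in both libraries was in the Bpifb1-high cluster, at 193 [127–280] in WT and 384 [342–431] in the mutant. Wnt9a, a canonical ligand of developing joints, was mostly stromal, at 41.4 [36.2–47.2] and 29.0 [23.8–34.9], against 4.57 and 7.61 in cartilage. It had no UMI in mural cells and at most 2 in endothelial and blood cells. The eBMSC-like cluster was highest in WT, at 73.3, and the Hbegf-high cluster in the mutant library, at 55.6.

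Wnt2 and Wnt16 UMIs were found mostly in stromal cells. Wnt2, a canonical ligand, had 79 of its 84 WT UMIs and 23 of its 29 mutant UMIs in stromal cells, at 14.6 [11.6–18.2] and 5.95 [3.77–8.92]. It had no UMI in cartilage, mural or endothelial cells of either library, which allows levels of up to 0.392 and 0.269 in cartilage and 1.51 and 1.64 in endothelial cells, and 1 UMI in mutant blood cells. In arterial-like cells alone the limits were higher, at 13.4 and 11.5. The eBMSC-like cluster was highest, at 35.9 [28.1–45.1] and 24.5 [14.8–38.3]. Wnt16, a ligand known for its part in cortical bone, had 70 of 71 and 17 of 18 UMIs in stromal cells, at 12.9 and 4.40, and none in cartilage. It was highest in Chodl-high tendon-like cells, at 111 [70.9–165] and 23 [9.94–45.4].

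Of the rarer ligands, Wnt6 had 24 and 50 UMIs in all cells. Its levels were 1.57 and 2.24 in cartilage, 0.370 and 2.33 in stromal cells and 0.779 and 2.43 in blood cells, with no UMI in mural or endothelial cells. The blood levels rest on 4 and 8 UMIs. In all kept cells Wnt6 stood at 1.08 and 2.05. Its blood level was thus a larger share of its library-wide level than any matrix gene reached there. Wnt6 was highest in the cluster with Schwann cell and muscle genes, with 5 UMIs in each library (26.8 and 28.9). Wnt10a, whose gene lies 6194 bases from Wnt6 on chromosome 1, had 9 and 16 UMIs, and was highest in Dpt-high stromal cells at 5.51 and 6.23. Wnt10a had 3 and 7 UMIs in cartilage and 5 and 7 in stromal cells. Wnt10b, known for its part in osteoblast formation, had 15 and 10 UMIs, of which 11 and 5 were stromal and 3 and 3 in cartilage, and its highest clusters held 2 UMIs each (9.22 in Chodl-high tendon-like cells of WT and 3.71 in Hbegf-high cells of the mutant library). The ligands below 20 UMIs were Wnt1 with 6 and 6 UMIs, Wnt2b with 6 and 2, Wnt7a with 2 and 0, Wnt7b with 0 and 1, Wnt8a with 1 and 0, and Wnt9b with 2 and 1. All 3 Wnt9b UMIs were in endothelial cells.

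**Figure D3:**
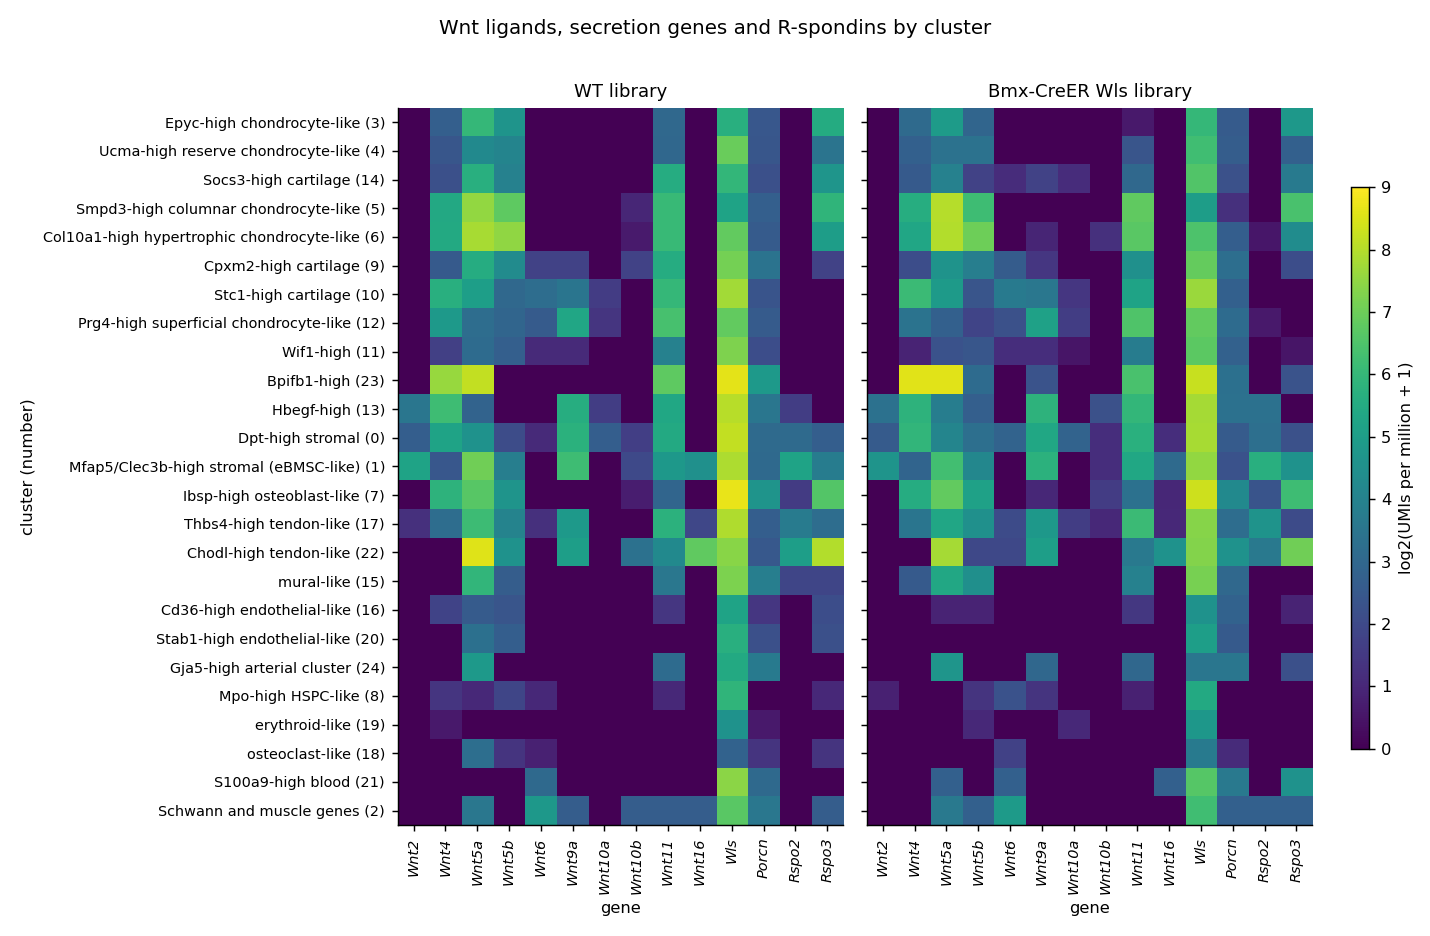
Levels of the 10 described Wnt ligands and of Wls, Porcn, Rspo2 and Rspo3 in the 25 clusters of the WT (left) and Bmx-CreER Wls (right) libraries, as log2(UMIs per 1000000 UMIs + 1) from dark (0) to bright (9). Wnt5a and Wnt5b are bright in hypertrophic and columnar chondrocyte-like cells, Wnt2 and Wnt16 in stromal clusters, and Wls in almost every row.

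Among the secretion genes, Wls was highest in Ibsp-high osteoblast-like cells of both libraries, at 411 [380–445] and 317 [283–354]. Osteoclast-like cells had the lowest WT level, 6.16 with 8 UMIs, and the Gja5-high arterial cluster had the lowest mutant level, 10.6 with 3 UMIs against 11 in WT. Porcn, which attaches the lipid to Wnt proteins, had levels of 4.96 and 5.55 in cartilage, 11.8 and 10.6 in stromal cells, 13.4 and 7.21 in mural cells, 3.52 and 6.57 in endothelial cells and 0.779 and 0.912 in blood cells. Its highest clusters rest on 4 UMIs in WT (28.5, Bpifb1-high) and 8 in the mutant library (23, Chodl-high tendon-like).

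R-spondins keep Fzd receptors at the surface by binding Lgr receptors and drawing away the ubiquitin ligases Znrf3 and Rnf43. Rspo2 was a stromal transcript, with 100 and 77 stromal UMIs against 0 and 2 in cartilage, 1 and 0 in mural cells and none in endothelial or blood cells. Rspo2 was highest in the eBMSC-like cluster, at 36.4 [28.6–45.7] and 50.3 [35.8–68.8]. Rspo3 had levels of 43.5 and 36.7 in stromal cells and 28.0 and 15.9 in cartilage, and at most 6 UMIs in each of the other compartments. It was highest in Chodl-high tendon-like cells, at 249 [187–325] and 132 [96.9–177]. Rspo1 had 6 and 3 UMIs, Rspo4 10 and 6, and Rnf43 10 and 7.

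Lgr4, the broad R-spondin receptor, was highest in Epyc-high chondrocyte-like cells, at 132 [116–150] and 99.6 [85.7–115]. Its compartment levels fell from 89.9 and 69.2 in cartilage through 54.4 and 41.4 in stromal and 34.9 and 33.6 in mural cells to 7.53 and 10.4 in endothelial and 6.42 and 9.12 in blood cells. Lgr5, a stem cell marker in several epithelia, was low everywhere, between 5.36 and 24.6 in the 5 compartments, and its highest clusters were Chodl-high tendon-like cells in WT (32.3, 7 UMIs) and the cluster with Schwann cell and muscle genes in the mutant library (69.4, 12 UMIs). Lgr6 was highest in Cpxm2-high cartilage cells, at 26.8 and 28.7, with 6.53 and 9.58 in all cartilage, 3.14 and 3.36 in stromal cells, no UMI in mural cells and at most 2 in endothelial and blood cells. Znrf3 was highest in Prg4-high superficial chondrocyte-like cells, at 39.4 and 29.1. Its levels were 22.9 and 18.7 in cartilage, 9.62 and 11.4 in stromal cells, 15.2 and 13.4 in blood cells and 8.54 and 2.19 in endothelial cells, with 1 UMI in mural cells of each library.

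Single Fzd receptors had their highest levels in different compartments. Fzd2 was highest in mesenchyme, with 178 [167–190] and 198 [185–213] in stromal cells, 110 [103–118] and 163 [155–170] in cartilage, 96.5 and 88.9 in mural cells, 6.53 and 7.12 in endothelial cells and 1.75 and 3.04 in blood cells. Fzd2 was highest in Chodl-high tendon-like cells of WT (327) and in eBMSC-like cells of the mutant library (303). Fzd4, a vascular receptor that also binds the ligand Norrin, was highest in endothelial cells, at 84.9 [72.6–98.7] and 80.5 [68.0–94.6]. Fzd4 had 59.0 and 67.3 in mural cells, 21.1 and 16.3 in stromal cells, 4.05 and 3.04 in cartilage and 1.56 and 1.82 in blood cells, and its highest clusters were the arterial cluster in WT (119) and Stab1-high endothelial-like cells in the mutant library (115).

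Fzd6, which acts in planar polarity, was highest in the Gja5-high arterial cluster of both libraries, at 155 [110–212] and 205 [156–265]. In all endothelial cells Fzd6 had 65.3 [54.6–77.5] and 81.6 [69.0–95.8], against 11.6 and 16.7 in cartilage, 12.6 and 15.5 in stromal cells, 10.7 and 2.40 in mural cells and 3.50 and 3.65 in blood cells. Fzd5 was highest in osteoblast-like cells of both, at 67.7 [55.2–82.1] and 64.4 [49.5–82.4]. Its stromal levels were 33.9 and 31.3, and it had 4.05 and 4.39 in cartilage, 4.52 and 6.02 in endothelial cells, 6.03 and 6.69 in blood cells and 1 and 0 UMIs in mural cells. Fzd9 was highest in Bpifb1-high cells, at 314 [228–421] and 234 [201–271], with 34.7 and 38.7 in cartilage and 1.85 and 4.91 in stromal cells. Fzd9 had at most 7 UMIs in mural and endothelial cells and 18 and 8 in blood cells.

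Fzd8 was highest in Cpxm2-high cartilage cells, at 137 [103–177] and 186 [153–224]. Over the compartments Fzd8 had 51.9 and 85.4 in cartilage, 47.2 and 78.1 in stromal cells, 5.36 and 24 in mural cells, 21.1 and 21.9 in endothelial cells and 3.11 and 9.12 in blood cells. Fzd7 had 48.3 [28.6–76.3] in mural, 47.9 [42.3–54.1] in stromal and 39.2 [34.9–43.9] in cartilage cells of WT. In the mutant library the mural level, 84.1 [58.6–117], lay above the stromal 46.0 [39.5–53.3] and the cartilage 37.3 [33.8–41.0]. Fzd7 gave 77 of the 198 Fzd UMIs of WT blood cells, with blood levels of 15 and 8.82, and had 5 and 3 UMIs in endothelial cells. Its highest clusters were Hbegf-high cells in WT (83.5) and Chodl-high tendon-like cells in the mutant library (86.4). Fzd1 had 39.6 and 41.2 in cartilage, 32.4 and 28.2 in stromal cells, 42.9 and 24 in mural cells, 12.6 and 9.31 in endothelial cells and 1.17 and 0.912 in blood cells, and was highest in the cluster with Schwann cell and muscle genes (107 and 116). Fzd3, a receptor of axon guidance, lay between 1.52 and 7.21 in every compartment and its highest clusters held 3 and 2 UMIs. Fzd10 had 25 UMIs in all, 10 and 6 of them stromal, and was highest in osteoblast-like cells of the mutant library (5.11, 5 UMIs) and, on 1 UMI, in S100a9-high blood cells of WT (7.47). In both libraries, Fzd2, Fzd7 and Fzd9 in endothelial cells and Fzd1, Fzd2 and Fzd10 in blood cells were not above the rate of the matrix genes.

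The co-receptors were found in every compartment. Lrp6 had 147 and 141 in cartilage, 149 and 116 in stromal cells, 115 and 93.7 in mural cells, 75.3 and 67.9 in endothelial cells and 57.6 and 55.3 in blood cells, and was highest in Chodl-high tendon-like cells of WT (286) and Bpifb1-high cells of the mutant library (207). Lrp5, known for setting bone mass, was highest of all compartments in endothelial cells, at 95.4 [82.4–110] and 115 [99.9–132]. Lrp5 had 57.9 and 93.9 in cartilage, 49.6 and 59.0 in stromal cells, 64.4 and 67.3 in mural cells and 24.1 and 33.8 in blood cells. By cluster, Cpxm2-high cartilage (129 and 167) and Stab1-high endothelial-like cells (121 and 166) were highest, with overlapping intervals.

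**Figure D4:**
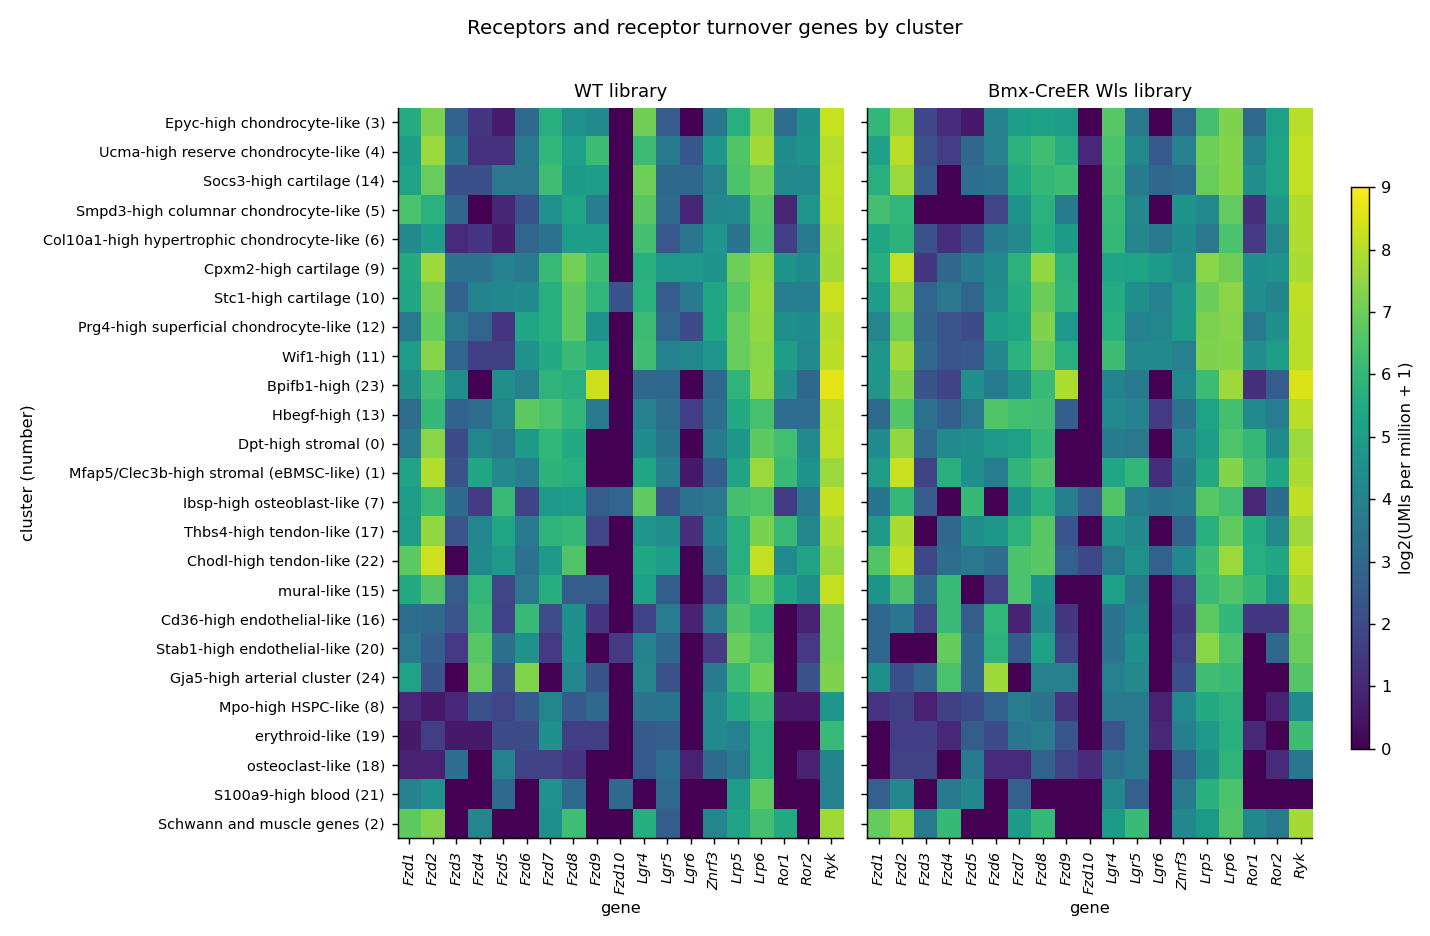
Levels of Fzd, Lgr, Znrf3, Lrp, Ror and Ryk genes in the 25 clusters of the WT (left) and Bmx-CreER Wls (right) libraries, as log2(UMIs per 1000000 UMIs + 1) from dark (0) to bright (9). Ryk and Lrp6 are present in nearly every row, Fzd2 is bright in cartilage and stromal rows, Fzd4 in endothelial rows, Fzd6 in the arterial row and Fzd9 in the Bpifb1-high row.

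Ryk, a Wnt receptor with a kinase-like domain, had 4375 and 5368 UMIs in all cells. It had 266 and 264 in cartilage, 241 and 236 in stromal cells, 287 and 219 in mural cells, 138 and 125 in endothelial cells and 37.8 and 31.0 in blood cells, and was highest in Bpifb1-high cells (392 and 370). Ror1 and Ror2, receptor tyrosine kinases that bind Wnt5a, were mesenchymal. Ror1 had 48.5 and 44.2 in stromal cells, 37.5 and 64.8 in mural cells and 9.80 and 11 in cartilage, with at most 2 UMIs in endothelial and blood cells. Its highest clusters were Dpt-high stromal cells in WT (76.0) and eBMSC-like cells in the mutant library (74.8). Ror2 had 19.1 and 22.5 in stromal cells, 18.7 and 25.7 in cartilage and 21.5 and 26.4 in mural cells, and at most 5 UMIs in endothelial and 2 in blood cells. Ror2 was highest in Chodl-high tendon-like cells of WT (36.9, 8 UMIs) and eBMSC-like cells of the mutant library (41.3).

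In the cytoplasm, Ctnnb1, which also joins cadherins to the cytoskeleton, was highest in endothelial cells at 248 [227–271] and 172 [154–193]. Cartilage had 142 and 92.1, stromal cells 145 and 94.1, mural cells 115 and 60.0 and blood cells 71.4 and 51.7. Its highest clusters were the arterial one in WT (314) and osteoblast-like cells in the mutant library (199). Axin1, the scaffold of the β-catenin destruction complex, had its highest compartment level in blood cells, at 55.5 [49.2–62.3] and 48 [40.8–56.1]. The others lay between 22.1 and 48.3, and its highest clusters were Mpo-high HSPC-like cells in WT (70.1) and S100a9-high blood cells in the mutant library (57.7, 10 UMIs).

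The 4 transcription factors had different ranges. Tcf7l1, which mostly represses targets, was highest in mural cells, at 279 [228–338] and 291 [241–347], and in Stab1-high endothelial-like cells among clusters, at 345 and 315. It had 227 and 184 in endothelial cells, 167 and 159 in stromal cells and 143 and 165 in cartilage, but only 4.48 and 3.65 in blood cells. Tcf7l2 was nearly even outside blood, from 110 to 155, with 30.4 and 23.4 in blood cells. Its highest clusters were hypertrophic chondrocyte-like cells in WT (204) and eBMSC-like cells in the mutant library (199). Lef1 was mostly found in cartilage, at 31.5 [27.6–35.7] and 26.4 [23.5–29.6], with 3.51 and 3.10 in stromal cells, no UMI in mural cells, at most 4 UMIs in endothelial and 2 in blood cells. Lef1 was highest in Ucma-high reserve chondrocyte-like cells in WT (83.6) and Socs3-high cartilage cells in the mutant library (47.4). Tcf7 was highest in osteoblast-like cells of both libraries, at 110 [93.7–128] and 114 [93.4–137], with 168 and 116 of its UMIs in all stromal cells, 6.01 and 6.00 in cartilage, and at most 12 UMIs in each other compartment.

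Feedback genes, which β-catenin signalling switches on and which restrain it, were mostly found in cartilage and stromal cells. Axin2 had 18 [15.1–21.3] and 18.4 [15.9–21.1] in cartilage, 8.69 and 10.9 in stromal cells and 2.53 and 2.74 in blood cells, with at most 3 UMIs in mural and endothelial cells. Axin2 was highest in hypertrophic chondrocyte-like cells of both libraries, at 34.7 [26.7–44.4] and 34.3 [27.0–43.0]. Notum, a secreted enzyme that removes the lipid from Wnt proteins, had 43.9 and 52.2 in cartilage and 13.5 and 16.8 in stromal cells, and at most 2 UMIs in each of the mural, endothelial and blood compartments. The Wif1-high cluster, which has no compartment, held a further 77 and 87 of its UMIs. It was highest in Stc1-high cartilage cells of WT (108) and in hypertrophic chondrocyte-like cells of the mutant library (100). Nkd1, which binds Dishevelled, had 29.5 and 36.8 in cartilage, 23.7 and 21.5 in stromal cells, 29.5 and 52.8 in mural cells and at most 8 UMIs in endothelial and blood cells, and was highest in Chodl-high tendon-like cells (59.9 and 63.3). Nkd2 had 3.70 and 8.28 in stromal cells, 18.8 and 4.80 in mural cells on 7 and 2 UMIs, at most 5 UMIs in cartilage and endothelial cells and none in blood cells. Nkd2 was highest in the cluster with Schwann cell and muscle genes in WT (53.7) and in Chodl-high tendon-like cells in the mutant library (34.5).

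The cluster patterns were close between the libraries for most genes. For 23 of the 43 genes the same cluster was highest in both libraries. Over the 25 clusters, the correlation of log levels between the libraries had a median of 0.876 over the 43 genes, with the lowest, 0.107, for Wnt10b, a gene with 25 UMIs. The clusters were drawn jointly from both libraries, so the points share cells of like composition, and the correlation is given as a description.

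AECs are the cells in which Wls was deleted, and their own Wnt transcripts were few. Arterial-like cells had 8 Wnt UMIs in WT and 10 in the mutant library, at 35.6 [15.4–70.2] and 38.3 [18.4–70.4]. Wnt5a made up 7 of them in each library, at 31.2 [12.5–64.2] and 26.8 [10.8–55.2]. In the rest of the endothelial cells Wnt5a had 11 UMIs in WT and 1 in the mutant library, at 6.23 [3.11–11.1] and 0.639 [0.016–3.56], below the arterial-like interval in both libraries. The matrix genes stood in arterial-like cells at no more than 0.832% and 1.77% of their library-wide level. That rate allows at most 0.124 and 0.287 Wnt5a UMIs, and the arterial-like Wnt5a counts were above it. In the endothelial cells that were neither arterial-like nor sinusoidal-like, 24 and 6 Wnt UMIs were not above the up to 18.3 and 17.04 of their own rate, with an interval that begins at 15.4 UMIs in WT. In arterial-like cells Wnt11 had 1 UMI in each library, and Wnt9a 0 and 2. Wnt2 had no UMI in arterial-like cells, which allows levels of up to 13.4 and 11.5. These limits lie near or above the stromal Wnt2 levels of the same libraries, so the lack of UMIs cannot separate arterial-like cells from stromal cells as a whole. They lie below the Wnt2 levels of the eBMSC-like cluster, 35.9 [28.1–45.1] in WT and 24.5 [14.8–38.3] in the mutant library. The paper describes many Wnt pathway transcripts as hardly detectable in its whole transcriptome data. With a targeted panel it found Wnt2 to be the most highly expressed Wnt ligand of AECs at E18.5.

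Arterial-like cells carried receptors as well. Fzd6 had 36 and 53 UMIs there, at 160 [112–222] and 203 [152–265], and Fzd4 26 and 22 UMIs, at 116 [75.6–170] and 84.3 [52.8–128]. Fzd1 had 9 and 6 UMIs, Fzd8 had 3 and 3, Fzd9 had 1 and 4, Fzd2 had 1 and 0, Fzd3 had 0 and 2, Fzd5 had 0 and 2, and Fzd7 and Fzd10 had none. In the rest of the endothelial cells Fzd6 was at 53.2 [43.0–65.1] and 61.3 [49.7–74.9], below its arterial-like interval in both libraries, and Fzd4 at 81.0 and 79.8, within it.

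Mpo-high HSPC-like cells, 279 in WT and 180 in the mutant library, are led by Mpo, Prg2 and Prtn3, genes of granulocyte progenitors and granules. The marker list that matched the cluster best was that of granulocyte-monocyte progenitors and not the HSPC list. The label HSPC-like therefore stands for mostly committed progenitors, and stem cells were not singled out. The cells of this cluster had 14 and 11 Wnt UMIs, at 7.50 [4.10–12.6] and 8.39 [4.19–15]. Wnt5a had 2 and 0 UMIs, where the rate of the matrix genes would allow up to 4.22 and 1.53, and Wnt2 had 0 and 1. Wnt5b had 5 and 2 UMIs and Wnt6 had 2 and 5. The matrix genes stood in this cluster at no more than 3.41% and 1.88% of their library-wide level. Set against the Wnt sum of all kept cells, 160 in both libraries, the cluster's Wnt interval was above that rate in the mutant library only. Fzd7 had 31 and 17 UMIs, at 16.6 [11.3–23.6] and 13 [7.55–20.8], above the up to 2.15 and 0.856 UMIs of that rate. Fzd9 had 14 and 2 UMIs, Fzd6 had 9 and 8, Fzd8 had 9 and 13, Fzd4 had 7 and 3, Fzd5 had 5 and 4, Fzd1 had 2 and 2, Fzd3 had 2 and 1, Fzd2 had 1 and 3, and Fzd10 had none. Of the co-receptors, Lrp5 had 78 and 58 UMIs and Lrp6 had 128 and 71, beside 80 and 53 UMIs of all Fzd genes. Wls had 110 and 57 UMIs in these cells, at 58.9 [48.4–71.0] and 43.5 [32.9–56.3].

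Between the libraries, genes with at least 50 UMIs over both in a compartment were compared, and a ratio of at least 1.5 either way was counted. In cartilage 4 of 35 compared members were higher and 3 lower in the mutant library, and over all 11028 genes compared 4.87% were higher and 2.91% lower. Wnt5b was at 67.9 and 34.1, a ratio of 0.502 [0.439–0.574], Rspo3 at 28.0 and 15.9, a ratio of 0.567 [0.462–0.695], and Ctnnb1 at 142 and 92.1, a ratio of 0.650 [0.596–0.709]. Lgr5 was at 7.18 and 16.8, a ratio of 2.34 [1.73–3.23], Wnt9a at 1.66 [1.11–2.54] times its WT level, Fzd8 at 1.65 [1.46–1.86] and Lrp5 at 1.62 [1.45–1.82]. The median log2 ratio of the 35 was 0.03, beside 0.00 for all genes. The mix of clusters differed between the libraries: hypertrophic cells gave 23.7% of WT and 19.6% of mutant cartilage UMIs, columnar cells 13.8% and 6.58%, Epyc-high cells 23.6% and 16.3%, reserve-like cells 9.22% and 17% and superficial-like cells 7.96% and 17.2%. With the mutant clusters weighted to the WT mix, 2 of the 7 still passed, Wnt5b at 0.649 and Lgr5 at 2.34, and Fzd3 passed in addition, at 0.591, where 6.46% of all genes passed either way. The other ratios became 0.996 for Wnt9a, 0.852 for Rspo3, 1.32 for Lrp5, 1.43 for Fzd8 and 0.675 for Ctnnb1.

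In stromal cells 3 of 35 compared members were higher and 3 lower, where 5.63% of all 10270 genes were higher and 3.08% lower. Wnt2 had 79 and 23 UMIs, a ratio of 0.407 [0.244–0.654], Wnt16 70 and 17 UMIs, a ratio of 0.339 [0.187–0.583], and Ctnnb1 786 and 364 UMIs, a ratio of 0.647 [0.570–0.734]. Higher were Fzd8, at 1.66 [1.40–1.96], Lgr5, at 2.07 [1.5–2.90], and Nkd2, at 2.24 [1.24–4.13] on 20 and 32 UMIs. The median log2 ratio was -0.06 for the members and 0.03 for all genes. The eBMSC-like cluster, where Wnt2 is highest, gave 37.6% of WT and 20.1% of mutant stromal UMIs. With the mutant clusters weighted to the WT mix, 4 of the 6 still passed, beside 8.33% of all genes either way, and Wnt2 at 0.688 and Ctnnb1 at 0.670 did not. Within that cluster the Wnt2 ratio was 0.683 [0.389–1.14], an interval that holds 1, and that of Wnt5a was 0.596 [0.443–0.792]. With cells thinned to 1000 UMIs each, the stromal Lgr5 ratio was 0.965.

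The smaller compartments gave few comparisons. In mural cells 1 of 10 members was higher and 1 lower, where 8.34% and 7.04% of 3068 genes were: Fzd7 had 18 and 35 UMIs with an interval that holds 1, and Ctnnb1 43 and 25 UMIs, a ratio of 0.521 [0.305–0.872] that became 1.15 in thinned cells. In endothelial cells 1 of 12 was higher and 1 lower, beside 3.69% and 3.64% of 7992 genes: Lgr5 had 20 and 32 UMIs with an interval that holds 1, and Wls the ratio of 0.558 [0.375–0.819]. In blood cells none of 12 was higher and 1 was lower, beside 4.54% and 2.85% of 9727 genes: Fzd7 had 77 and 29 UMIs, a ratio of 0.588 [0.370–0.912]. Among arterial-like cells 1 of 5 members was lower and none higher, beside 5.71% and 7.31% of 1820 genes, and this was Ctnnb1 at 0.633 [0.430–0.925]. Among sinusoidal-like cells it was again Ctnnb1, 1 of 7, at 0.626 [0.471–0.827], beside 4.92% lower and 5.15% higher of 3865 genes, and no member of 11 passed in other endothelial cells, where 4.71% and 4.14% of 6449 genes did. The median log2 ratios of members were 0.00 in mural, -0.11 in endothelial and -0.14 in blood cells, beside -0.01, -0.01 and 0.00 for all genes.

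**Figure D5:**
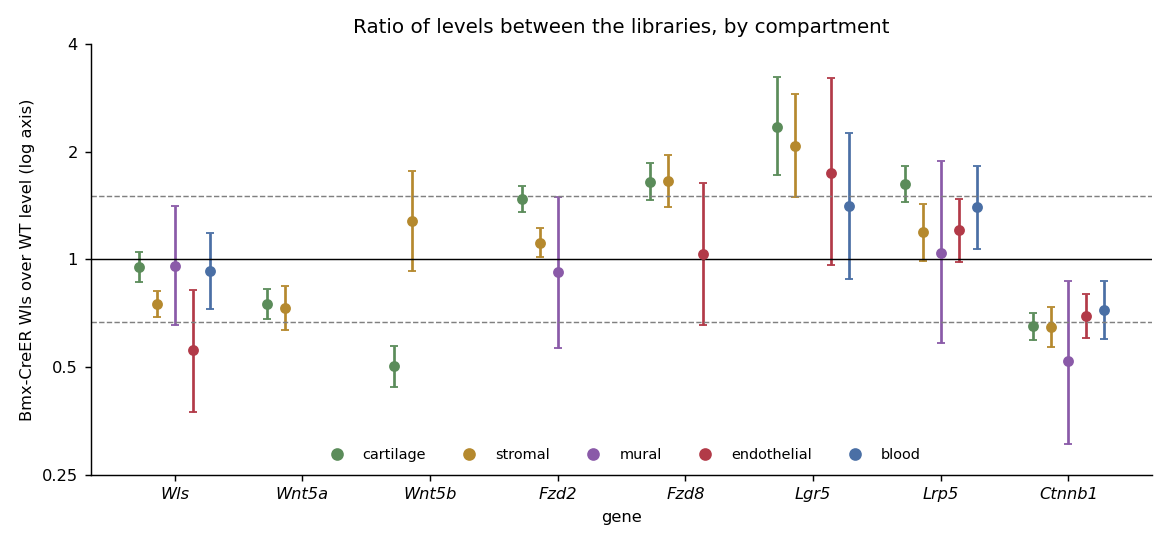
Mutant over WT level (log axis) of 8 members in the compartments where a gene had at least 50 UMIs over both libraries, with 95% exact conditional binomial intervals. Dashed lines mark 1.5-fold either way and the solid line equal levels. Ctnnb1 lies below 1 in all 5 compartments, Lgr5 above 1 in the 4 that could be compared, and Wls is lowest in endothelial cells.

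Some members kept their side within single clusters. Ctnnb1 was lower in the mutant library in 22 of 23 clusters that had 50 UMIs, with a median ratio of 0.645. Fzd8 was higher in 16 of 16, from 1.12 to 2.28, Lrp5 in 15 of 16, Fzd2 in 15 of 18 and Ror2 in 6 of 6. Wls was lower in 16 of 20 clusters, Lgr4 in 9 of 10 and Lef1 in 3 of 3. Other members were split: Ryk was higher in 11 clusters and lower in 12, Tcf7l1 in 10 and 11, and Wnt5a and Fzd9 each in 4 and 5. The share of all genes that keep a side over clusters was not computed, so these counts have no background beside them. All clusters of a library share that library, so these are not repeated measurements of the genotype.

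Hypertrophic and columnar chondrocyte-like cells were the cartilage clusters with the highest Wnt sums. In hypertrophic cells 7 of 24 compared members were higher and 1 lower, beside 7.33% and 4.59% of 6838 genes. Higher were Wnt11, Fzd1, Fzd2, Fzd7, Fzd8, Nkd1 and Notum, and Rspo3 was lower. In columnar cells 3 of 18 were higher and 3 lower, beside 5.60% and 5.84% of 4610 genes. Higher were Wnt11, Nkd1 and Notum, and lower were Wnt5b, Lgr4 and Axin1. Values for ligands and feedback genes follow, picked after they were seen. Wnt11 had 119 and 226 UMIs in hypertrophic cells, a ratio of 1.58 [1.26–1.99], and 69 and 81 in columnar cells, a ratio of 1.69 [1.21–2.36]. Wnt5b was lower in both, at 0.706 [0.6–0.831] and 0.662 [0.469–0.924]. Wnt5a was at 1.10 [0.966–1.25] in hypertrophic and 1.37 [1.12–1.68] in columnar cells, but at 0.479 [0.340–0.669] in Epyc-high cells. Notum had 77 and 219 UMIs in hypertrophic cells, 2.36 [1.81–3.10] times its WT level, and 18 and 52 in columnar cells, 4.15 [2.39–7.53] times, while Stc1-high cells had 0.521 [0.377–0.714] and the Wif1-high cluster 0.435 [0.316–0.599] of the WT level. Nkd1 was at 1.98 [1.40–2.85] in hypertrophic cells and Axin2 at 0.989 [0.698–1.41].

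Further pathway genes, 39 of the 40 on the list, were mostly below 1.5-fold. In cartilage 3 of 35 were higher and 1 lower, beside 4.87% and 2.91% of all genes. In stromal cells 1 of 34 was higher and none lower, beside 5.63% and 3.08%, and in mural cells none of 16 was higher and 1 lower, beside 8.34% and 7.04%. In endothelial cells none of 28 passed, beside 3.69% higher and 3.64% lower, and in blood cells none of 27 was higher and 1 lower, beside 4.54% and 2.85%. Furthest from 1 were, in cartilage, Myc at 0.570 and Vangl2 at 0.701 with Tle2 at 2.46 and Tnfrsf19 at 2.59, and in stromal cells Myc at 0.749 and Ccnd1 at 0.764 with Dvl1 at 1.43 and Celsr2 at 1.67. In mural cells they were Myc at 0.489 and Daam1 at 0.753 with Daam2 at 1.21 and Csnk1e at 1.25, in endothelial cells Myc at 0.793 and Kremen1 at 0.799 with Celsr1 and Gpc3 at 1.27, and in blood cells Daam1 at 0.564 and Gpc4 at 0.694 with Gpc3 at 1.33 and Bcl9l at 1.47. Of the secreted Wnt antagonists, Wif1 reached 1182 and 1261 in superficial chondrocyte-like cells, Sfrp1 372 and 442 in reserve-like cells, Frzb 322 and 278 in hypertrophic cells, Dkk2 405 and 456 in the arterial cluster and Dkk3 513 and 661 in Thbs4-high tendon-like cells. Sost had 1 and 2 UMIs in endothelial cells, its highest compartment.

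Exons of 11 members overlap exons of another annotated gene, among them Wnt5a with Gm2670, Wnt11 with Gm8398, Fzd6 with Gm26704, Notum with Notumos and Ctnnb1 with Ulk4, each on the opposite strand. The strand setting of the counting is not given in the sources used here, so reads of such pairs cannot be told apart.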

How the data were processed

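The deposited tables hold whole-number UMI counts per gene and cell for 1 WT and 1 Bmx-CreER Wls library of Lin- femur cells. Per the labels and the study's methods, the authors used bcl2fastq 2.19.1.403, UMI-tools 1.0.1, STAR 2.7.1a and featureCounts 1.6.4 with mm10. No column of another sample was present (0).

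The filter kept cells in which over 200 but under 5000 genes were found and in which mitochondrial UMIs made up less than 30%. Counts were log-normalized to 10000, and variable genes were taken without cell cycle and member genes. With 11 principal components and 20 neighbours, Leiden clustering at resolution 1.0 (endothelial cells again at 0.5) was run in scanpy 1.11.5 on Python 3.11.15 with numpy 2.4.6 and scipy 1.17.1. Doublets were left in and removed in an alternative. Clusters were named from fixed marker lists and their 10 leading genes. The thresholds of naming were set after the clusters were seen.

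Depth was 576 to 18932 UMIs per kept WT cell and 417 to 23613 per mutant cell. UMIs were summed over the cells of a class, and cells were not used as replicates. With 1 library per genotype no test was run. The members and lists were chosen with earlier results of these data known. By a fixed rule, every member with at least 20 UMIs was described, and members past 1.5-fold with at least 50 UMIs and an interval that excludes 1 were named. Cluster values quoted beyond this rule, and members past 1.5-fold whose interval holds 1, were chosen after their values were seen. Alternatives covered clustering, cell filters, doublets, scaling, depth and low counts.

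The intervals were tried on simulated counts with 200 genes altered 2-fold. The counts were drawn with Poisson error alone, which is the error the intervals assume. Variation between embryos, libraries or cells was not simulated, so the coverage checks the calculation only. The intervals covered the simulated ratio of 96% of the altered genes in cartilage (11028 genes), 92% in stromal (10270), 96% in endothelial (7992) and 98% in blood cells (9727). Positions come from GENCODE M21 (GRCm38) and promoter sequences from RefSeq (GRCm38.p6).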

Additional observations from a re-analysis of the deposited data

Results flagged for a closer look

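Wnt9a and Tcf7l1 moved to opposite sides of equal levels in different compartments, each with counting intervals that exclude 1 on both sides. Wnt9a in the mutant library was at 1.66 [1.11–2.54] times its WT level in cartilage and at 0.699 [0.552–0.881] in stromal cells. Tcf7l1 was at 1.16 [1.08–1.25] in cartilage and at 0.812 [0.703–0.937] in endothelial cells. With 1 library per genotype the difference between compartments was not tested. Superficial chondrocyte-like cells, the cartilage cluster with the most Wnt9a UMIs (24 in WT and 67 in the mutant library), gave 7.96% of WT and 17.2% of mutant cartilage UMIs. The part of this shift in the Wnt9a value was not tested beyond the weighting to the WT mix, which gave 0.996.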

How the results depend on the processing

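No paired analysis was possible because each genotype is 1 library. Of the compared results, 177 values for compartments and counts stayed within their own error and 56 moved, and 3 single ratios changed side. The cause of the moves was not tested. Levels below are summed Wnt or Fzd UMIs per 1000000 UMIs.

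At resolution 0.5, cartilage Wnt was 229 in WT and 163 in the mutant library, and 1 mural member passed 1.5-fold. With 30 principal components, Wnt was 232 and 164 in cartilage and 230 and 192 in stromal cells. With at least 1000 UMIs and under 10% mitochondrial UMIs, cartilage Wnt was 231 and 165, with 1 mural and 1 endothelial member past 1.5-fold. Without the 5% of cells most like doublets, cartilage Wnt was 231 and 166, WT blood Wnt 2.48 and mutant stromal Fzd 451, with 1 mural and 1 endothelial member past 1.5-fold. With members among the variable genes, cartilage Wnt was 229 and 166 and mutant cartilage Fzd 410.

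As a mean over cells, cartilage Wnt was 190.2 and 146, cartilage Fzd 360 and 441, stromal Fzd 410 and 465 and WT endothelial Wnt 12.4. Without haemoglobin and mitochondrial genes in the total, cartilage Fzd was 315 and 408 and WT stromal Fzd 399. Thinned to 1000 UMIs, cartilage Wnt was 190.5 and 155, cartilage Fzd 362 and 436, stromal Fzd 438 and 445, mutant stromal Wnt 192, endothelial Wnt 12.3 and 2.19 and WT endothelial Fzd 231, with 0 mural and 0 endothelial members past 1.5-fold. Thinning turned Lgr5 in stromal cells to 0.965 and Ctnnb1 in mural cells to 1.15, and left no Wls UMI in mutant arterial-like cells, so no ratio. In every other alternative the arterial-like Wls ratio lay between 0.157 and 0.243.

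With at least 20 UMIs, 6 of 16 mural, 4 of 18 endothelial and 2 of 17 blood members passed 1.5-fold, beside 24.3%, 12.3% and 11.98% of all genes. With 1 UMI, 12 of 44 did in cartilage, 16 of 50 in stromal, 20 of 34 in mural, 21 of 39 in endothelial and 20 of 42 in blood cells, beside 32.3%, 33.9%, 49.0%, 36.3% and 37.9%. Of the alternatives chosen after seeing the data, counting every cluster past the chondrocyte threshold as cartilage gave Wnt 235 and 204 and Fzd 315 and 416. Leaving out the endothelial subcluster led by chondrocyte genes gave WT endothelial Wnt of 12.1. With the mutant clusters weighted to the WT mix, 3 cartilage members passed, of which Wnt5b and Lgr5 had passed before and Fzd3 had not, and Wnt9a turned to 0.996. Depth limits small groups, such as arterial-like cells, where 3 UMIs are a level of 13.4 in WT and 11.5 in the mutant library.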

Other observations

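The clusters with no compartment held some of the strongest Wnt transcripts. In the Bpifb1-high cluster Wnt4 made up 32.1% and Wnt5a 47.6% of 84 WT Wnt UMIs, and 44.2% and 44.7% of 669 mutant ones. The cluster gave 0.630% of WT and 3.16% of mutant UMIs. In Hbegf-high cells, led by Hbegf, Clic5 and Tspan15, Wnt4 (40.7% of 86 Wnt UMIs in WT, 27.3% of 110 in the mutant library), Wnt9a (26.7% and 27.3%) and Wnt11 (19 and 33 UMIs) made up most of the Wnt UMIs.

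Cartilage clusters differed in which ligand led. Wnt11 made up 48.1% of 104 WT and 60.3% of 287 mutant Wnt UMIs in superficial chondrocyte-like cells, and Wnt5a 4.81% and 3.83%. In Epyc-high cells Wnt5a made up 62.2% of 180 and 66.7% of 81, and Wnt11 7.22% and 1.23%. Among osteoblast-like cells Wnt5a made up 53.3% of 285 and 53.1% of 207 and Wnt4 29.8% and 22.2%.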
